A study of Mus musculus with 6 samples.

Results

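Foxa1, Foxa2 and Foxa3, 3 forkhead genes, and Sox17, Sox9, Sox2 and Sox4, 4 Sox genes, were followed by gene symbol through single cells and tissue sections of the mouse uterus. All 7 had a row among the 24077 genes of the single-cell table and among the 30828 genes of each section. Uteri came from CD-1 mice at 12 months of age that had received diethylstilbestrol (DES, a synthetic oestrogen) at 1 mg/kg/day on neonatal days 1 to 5, or corn oil (CO). CO mice were collected in oestrus and DES mice in persistent oestrus. Single cells formed 1 library per condition, with the uteri of 2 CO mice and of 4 DES mice pooled, and 10x Visium sections came from 2 CO mice and 2 DES mice, 1 mouse per section. The single-cell libraries therefore allow no test between conditions. Their intervals cover counting error only, whereas the sections were tested with n = 2 per condition. Per the study's methods, a pathologist looked for uterine adenocarcinoma in DES tissue before mice and areas were chosen for the sections. The single cells came from the uterine horns, without the uterine body.

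FOXA proteins are pioneer factors that open chromatin for other regulators. FOXA2 is needed for uterine gland formation in the mouse, FOXA1 accompanies the oestrogen receptor in several epithelia, and FOXA3 takes part in mucous cell differentiation of the airway. SOX17 acts in endoderm, endothelium and uterine epithelium, where it is required for implantation. SOX9 marks glandular and progenitor cells of many epithelia, SOX2 acts in pluripotent cells and in basal cells of stratified epithelia, and SOX4 is expressed in many developing tissues.

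In the deposited annotation 2583 CO cells were epithelial, and 5255 DES cells. Of the DES cells, 479 had more than 1 UMI (unique molecular identifier, a counted transcript molecule) of both Krt14 and Trp63 and lay outside the DES epithelial clusters, and are called basal here, 4608 lay in those clusters and are called non-basal, and 168 met neither condition. Among the non-basal cells, 4 also had more than 1 UMI of both genes. The 3 basal markers Krt14, Krt5 and Trp63 summed to 5380 UMIs per 1000000 UMIs of those cells (CPM) in basal cells, 85.1 CPM in DES non-basal cells and 1.2 CPM in CO epithelial cells. Median depth was 23458 UMIs in CO and 24663.5 in DES non-basal cells. The libraries had 180 cell barcodes in common, of which 3 were non-basal epithelial cells in both. Over all cells the libraries held 353460067 UMIs in 32387 CO cells and 288919190 UMIs in 16312 DES cells, and the sections held 9117099 to 12506177 UMIs over 1357 to 1834 spots.

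Among the 6 members tested in sections, the forkhead members carry the largest differences below, so their promoter sequence is shown first. RefSeq windows on GRCm38.p6, the build of the mm10 data, were matched by symbol for 5 of the 7 genes; Sox17 and Sox9 had none. Foxa2 (chromosome 2, 148042877 to 148046969, minus strand) and Foxa3 (chromosome 7, 19013284 to 19023538, minus strand) are given as the 250 bases before the start, at chr2:148046970-148047219 and chr7:19023540-19023789. For Foxa1 (chromosome 12, 57540628 to 57546916, minus strand) a stretch at chr12:57546235-57546263 is given; the RefSeq start of its window (57546112 to 57546361) is internal to the gene so annotated, and the stretch lies within the gene and not upstream of it. Capitals mark a TATA box in Foxa3, at -36 to -31 from the start, and a forkhead core in Foxa1, at -141 to -135 from the internal start.
Foxa2: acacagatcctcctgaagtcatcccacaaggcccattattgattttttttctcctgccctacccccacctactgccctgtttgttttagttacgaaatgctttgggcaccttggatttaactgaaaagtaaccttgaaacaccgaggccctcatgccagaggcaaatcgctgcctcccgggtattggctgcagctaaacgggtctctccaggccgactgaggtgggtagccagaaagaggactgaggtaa
Foxa3: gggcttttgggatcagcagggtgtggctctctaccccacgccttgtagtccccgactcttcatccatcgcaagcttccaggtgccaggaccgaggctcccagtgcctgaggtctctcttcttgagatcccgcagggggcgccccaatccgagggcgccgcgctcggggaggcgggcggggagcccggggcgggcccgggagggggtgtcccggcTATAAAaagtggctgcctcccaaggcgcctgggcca
Foxa1: tatactgctttGTAAACAaagtgagggcc
The windows, taken as the 250 bases before the start, were searched on both strands for short patterns of letters. The forkhead core TGTTTAC or TATTTAC was held by 5.76% of all 32851 windows, and the SOX core ACAAT by 27.7%. The oestrogen response element, with GGTCA and TGACC set 3 bases apart, was held by 0.0639%, and the TATA box TATAAA by 12.4%. The Foxa2 window shown, the outermost of 3 for that gene, held none of these patterns. It had 50.8% G and C bases, against 68.8% in the Foxa3 window. Another of the 3 Foxa2 windows held a TATA box match on the other strand, at -208 to -203 from its own start. No member window held overlapping matches. These are matches of letters, with no binding measured.

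Foxa2, the gland factor, was higher in DES than in CO non-basal epithelial cells. It stood at 7.39 CPM in CO (95% interval 6.80 to 8.01; 582 UMIs) and at 16.2 CPM in DES (15.6 to 16.8; 2652 UMIs), a ratio of 2.19 (2.0 to 2.40). With each cell thinned to 3000 UMIs, 2.30% of CO cells (1.76 to 2.96) and 4.32% of DES cells (3.75 to 4.95) had a Foxa2 UMI, and without thinning 13.8% and 27.8%. Mesothelial cells, which should lack the gene, gave 0.134% and 0.159% after thinning, at median depths of 10436 and 12329 UMIs. The epithelial shares were thus above the mesothelial shares in both libraries. Mesothelial Foxa2 stood at 0.409 CPM in CO and at 0.712 CPM in DES, a ratio of 1.74 (1.09 to 2.80). The part of free RNA in the epithelial ratio was not tested.

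Sox17 was also higher in DES and Sox9 lower. Sox17 stood at 90.8 CPM in CO (88.7 to 92.9) and at 215 CPM in DES (213 to 217), a ratio of 2.37 (2.31 to 2.43), with thinned shares of 23.1% and 45.6% of cells, against 2.16% and 2.88% of mesothelial cells. Sox9 was at 164 CPM in CO (161 to 167) and 53.1 CPM in DES (52.0 to 54.2), 3.08-fold lower in DES (3.0 to 3.17), with thinned shares of 33.5% and 11.6%. Sox4 differed less, at 179 CPM in CO and 262 CPM in DES, a ratio of 1.46 (1.43 to 1.49). Of all 6184 genes that reached 20 CPM in CO or DES cells, 5.50% were at least 2-fold higher in DES and 8.13% at least 2-fold lower. Of the 3 members at that level, Sox17 and Sox9 lay past 2-fold, in opposite directions, and Sox4 did not.

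The Sox9 difference was seen outside the epithelium as well. Mesothelial Sox9 was 10.2 CPM in CO and 1.92 CPM in DES, 5.30-fold lower in DES, with thinned shares of 3.69% and 0.687%, and lymphocyte Sox9 was 21.4 CPM and 5.37 CPM. For Sox17 the mesothelial levels were 6.65 CPM and 7.88 CPM and the lymphocyte levels 19.6 CPM and 31.6 CPM. The 8 epithelial marker genes, none at 0, summed to 6203 CPM in CO and 4292 CPM in DES non-basal epithelial cells, to 2112 CPM and 1303 CPM in mesothelial cells and to 1231 CPM and 518 CPM in lymphocytes, so the labelled epithelium was the highest in both libraries. Mesothelial cells express some of these genes themselves, among them Krt8, Krt18 and Krt19, and the part of free RNA in the Sox9 levels was not tested.

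Foxa1, Foxa3 and Sox2 were rare in the non-basal cells. Foxa1 had 74 UMIs in CO and 20 in DES, or 0.939 CPM against 0.122 CPM (0.0745 to 0.188), 7.70-fold lower in DES (4.65 to 13.3). Mesothelial cells, which should lack it, held 0.0722 CPM in CO and 0.0929 CPM in DES (0.0341 to 0.202), so the level of DES non-basal cells could not be told from background. With basal cells added the direction turned, to 1.44-fold higher in DES (1.11 to 1.90), and with the 168 cells in no cluster added as well the ratio was 1.60. Foxa3 had 7 and 26 UMIs, with an interval of the DES to CO ratio from 0.754 to 4.87, and Sox2 had 21 and 29 UMIs, with a CO to DES ratio of 1.51 (0.817 to 2.74). At this depth neither Foxa3 nor Sox2 differed between the libraries beyond counting error.

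Foxa1 was found mainly in the basal cells. They held 215 of the 265 Foxa1 UMIs of DES epithelial cells (81.1%), at 22.5 CPM (19.6 to 25.7) and in 122 of 479 cells, while DES non-basal cells were near the mesothelial level. Sox4 was likewise higher in basal cells, at 459 CPM against 262 CPM. Foxa2 and Sox17 were lower there, at 3.35 CPM and 103 CPM, and Sox9 stood at 67.5 CPM against 53.1 CPM. Sox2 had 2 UMIs in basal cells and Foxa3 had 1.

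**Figure D1:**
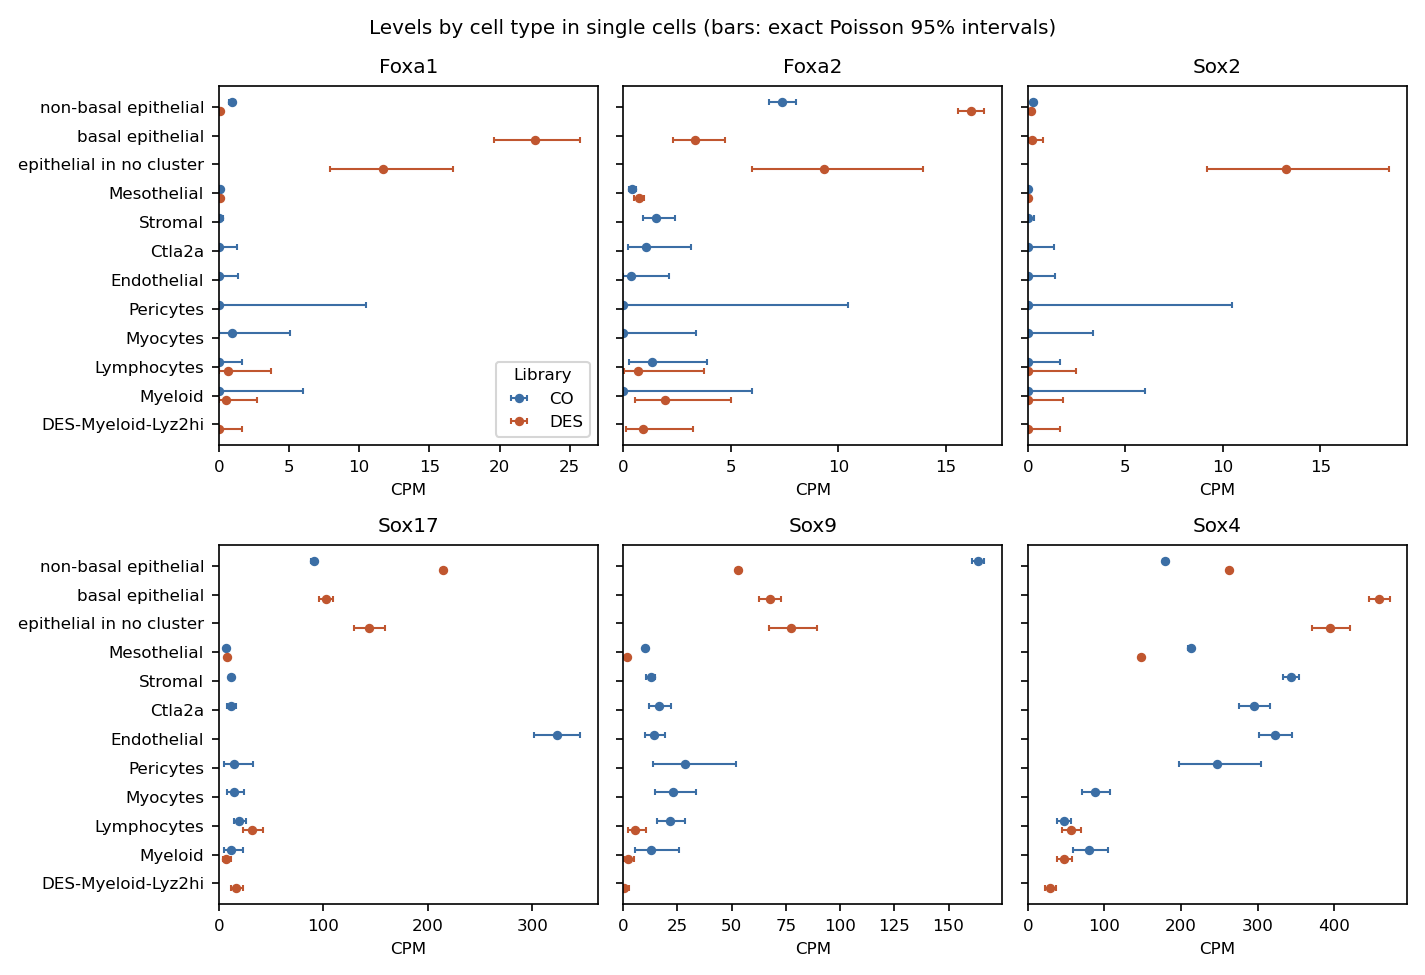
Level in CPM of Foxa1, Foxa2, Sox2, Sox17, Sox9 and Sox4 in each annotated cell type with at least 50 cells, CO in blue and DES in orange, with epithelial cells split into non-basal, basal and no cluster. Bars are exact Poisson 95% intervals; Foxa1 peaks in DES basal cells at 22.5 CPM, and Sox17 in CO endothelial cells at 323 CPM.

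Beyond the epithelium, Sox17 was highest in CO endothelial cells, at 323 CPM (302 to 346), above both epithelial levels, and 49.4% of those cells had a UMI after thinning. Sox4 was spread over the tissue, from 47.2 CPM in CO lymphocytes and 87.5 CPM in myocytes to 323 CPM in endothelial and 344 CPM in stromal cells (333 to 354). Endothelial and stromal Sox4 have overlapping intervals. The DES library held 5 endothelial cells and 1 stromal cell, so those types are not set against CO. Sox9 did not exceed 28.4 CPM in any CO cell type other than epithelium, a value from 10 UMIs in pericytes.

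Within CO epithelium, Foxa2 and Sox9 peaked in the same cluster. CO cluster 13, 62 cells led by Prss29, Prss28 and Spink1 (secreted protease genes and a protease inhibitor gene), held 82.0 CPM of Foxa2 (64.3 to 103), 16.2 times the median of the 15 CO clusters, and 885 CPM of Sox9 (824 to 949), 6.03 times the median. Cluster 11, led by Cxcl5, Fabp5 and Scgb3a1, came next for both, at 21.8 CPM (17.3 to 27.0) and 306 CPM (289 to 324). Foxa2 in cluster 12 (12.4 CPM), cluster 7 (9.44 CPM) and cluster 0 (9.21 CPM) followed with overlapping intervals, and cluster 5 was lowest at 1.67 CPM. Sox9 was lowest in cluster 2 at 99.0 CPM.

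Sox17 and Sox4 had other orders over the CO clusters. Sox17 was highest in cluster 12 (213 CPM; 192 to 235), led by Gstm7, Plat and Bpifb5, and in cluster 13 (212 CPM; 183 to 245), which cannot be told apart by their intervals, and the next was cluster 8 at 129 CPM. Its lowest level was 77.6 CPM, in cluster 0. Sox4 was highest in cluster 12, at 450 CPM (419 to 482), and lowest in cluster 13, at 85.3 CPM (67.2 to 107), with cluster 8 within that interval at 91.3 CPM. Cluster 13 was therefore at the top for Foxa2 and Sox9, among the top pair for Sox17 and at the bottom for Sox4.

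Clusters 3, 8, 13 and 14 carry the gland names in the study's text. Together their 417 cells held 11.6 CPM of Foxa2 against 6.72 CPM in the 2095 luminal cells, a ratio of 1.73 (1.38 to 2.15), and 229 CPM of Sox9 against 156 CPM, a ratio of 1.47 (1.40 to 1.54). Both ratios rest on cluster 13. Without it Foxa2 stood at 3.58 CPM in gland clusters, 1.88-fold lower than in luminal cells (1.28 to 2.86), and the Sox9 ratio was 0.989 (0.931 to 1.05). Sox17 was higher in the gland clusters with cluster 13 (ratio 1.26) and without it (1.12; 1.04 to 1.21), and Sox4 was lower both times, 1.67-fold and 1.63-fold.

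**Figure D2:**
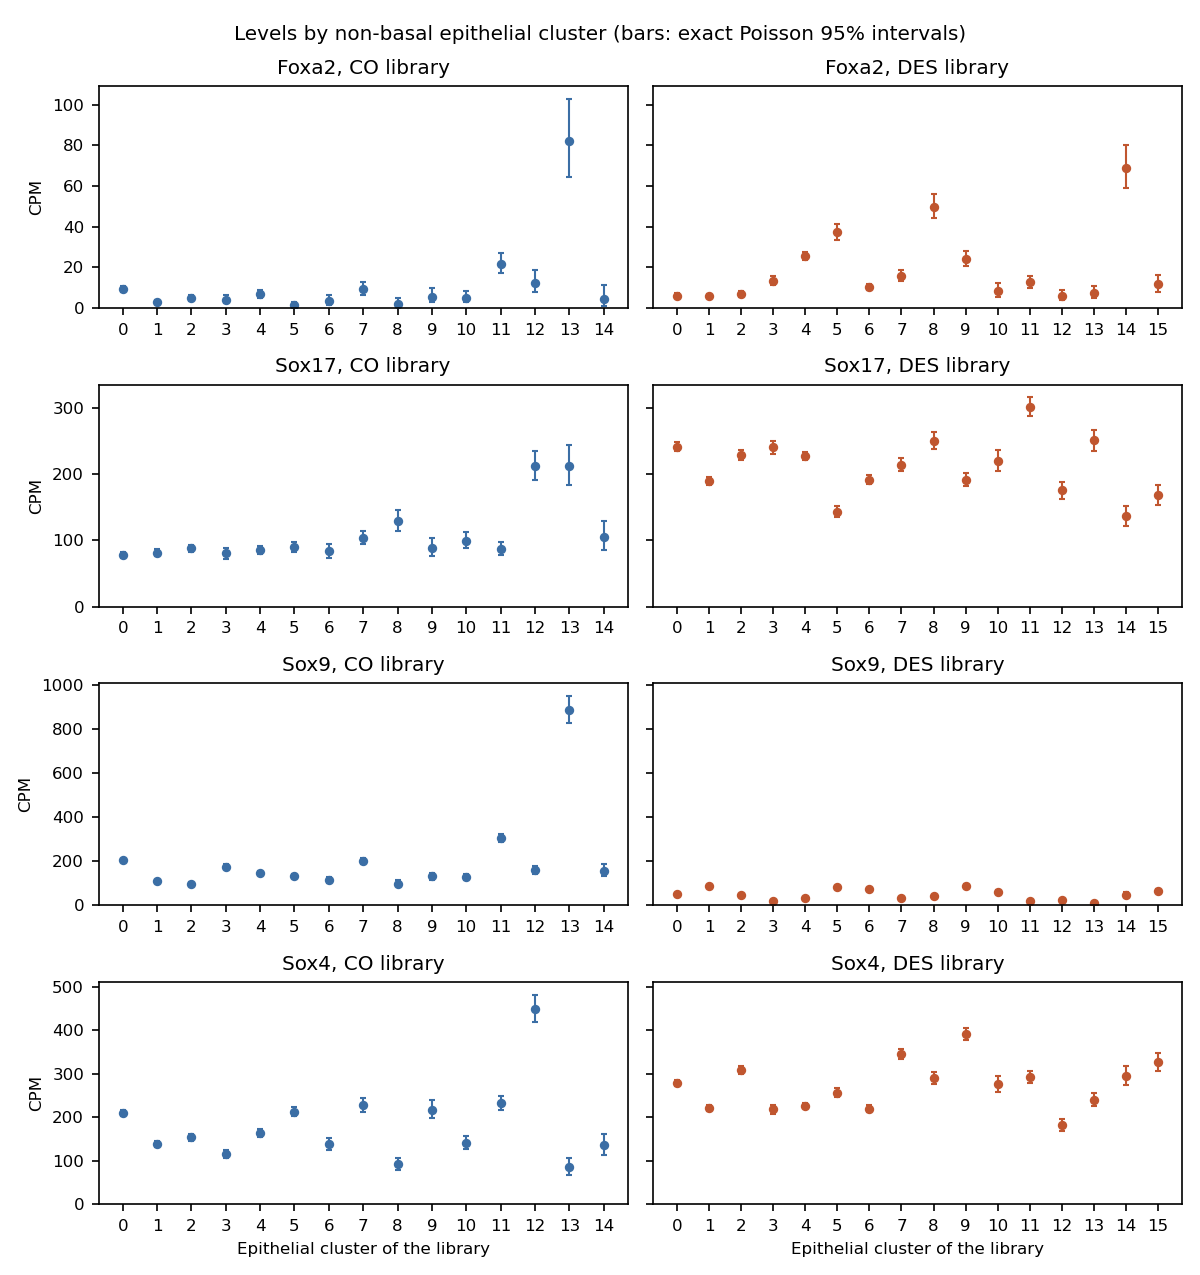
Level in CPM of Foxa2, Sox17, Sox9 and Sox4 in each of the 15 CO clusters (left) and 16 DES clusters (right) of epithelial cells, on a shared axis for each gene, with exact Poisson 95% intervals. Foxa2 and Sox9 share their highest CO cluster, 13, whereas the highest DES clusters are 14 for Foxa2 and 9 for Sox9.

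In DES epithelium the peaks of Foxa2 and Sox9 fell in different clusters. Foxa2 was highest in cluster 14, 67 cells led by Chad, Runx3 and Ramp2, at 68.9 CPM (58.8 to 80.2), followed by cluster 8 at 49.9 CPM (44.4 to 55.9) and cluster 5, led by Tff1, Ccl6 and Olfm4, at 37.2 CPM (33.3 to 41.4). Clusters 4 and 9 came next at 25.6 CPM and 24.2 CPM, and cluster 1 was lowest at 5.86 CPM, next to clusters 12 and 0 at 6.02 CPM and 6.07 CPM. The highest DES level was 5.67 times the median over clusters, against 16.2 times in CO.

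Sox9 in DES was highest in clusters 9 (89.1 CPM; 82.6 to 96.0), 1 (87.7 CPM) and 5 (81.5 CPM), with overlapping intervals, and lowest in cluster 13 at 11.03 CPM. All 16 DES clusters lay below the lowest CO cluster, 99.0 CPM. Sox17 was highest in DES cluster 11, led by Calb1, Crabp2 and Hdc, at 302 CPM (288 to 316), and lowest in clusters 14 (137 CPM) and 5 (143 CPM), 2 of the clusters highest in Foxa2. Its DES and CO cluster levels overlapped, since CO clusters 12 and 13 exceeded the lowest DES clusters. Sox4 ranged from 181 CPM in DES cluster 12 to 390 CPM in cluster 9, led by Cyr61, Atf3 and Fos.

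The rare members were uneven over DES clusters. Of 29 Sox2 UMIs in clusters, 16 were in cluster 14, in 8 of its 67 cells, at 6.60 CPM. Foxa3 had 9 of its 26 UMIs in cluster 5, and Foxa1 had 7 of its 20 in cluster 15. In CO, Foxa1 was highest in clusters 7 (15 UMIs, 3.83 CPM) and 0 (33 UMIs, 1.91 CPM), and was at 0 in clusters 12 and 13.

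As a description over the 15 CO clusters of 1 library, which differ in depth and cell number, the Pearson correlation of log2(CPM + 1) of Foxa2 with that of Sox9 was 0.920, and 0.799 with cluster 13 left out. Over the 16 DES clusters it was 0.157. Foxa2 with Sox17 gave 0.568 in CO, which fell to 0.187 without cluster 13, and -0.359 in DES, which shrank to -0.106 without DES cluster 14. Per cell, at 3000 UMIs, 59.3% of the 59 CO cells with a Foxa2 UMI also had a Sox9 UMI (45.7 to 71.9), against 32.8% of the other cells (31.0 to 34.7). Without cluster 13 the shares were 54.0% of 50 cells (39.3 to 68.2) and 31.8%. In DES the shares were 10.7% of 197 cells (6.72 to 15.8) and 11.7%. Cells with Foxa2 thus had Sox9 more often in the CO library, and not in the DES library beyond counting error.

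The genes whose cluster pattern was most like that of Foxa2 in CO were Ptpn1 (a tyrosine phosphatase gene, r = 0.979 over 15 clusters), Svil (0.943), Sox9 (0.920), Nfia (0.910) and Actn1 (0.894), among 7791 genes with at least 20 CPM in a cluster. In DES they were Fam83e (0.885 over 16 clusters), Col14a1 (0.866), Cxcl15 (0.855), Tmed2 (0.842) and Sdhc (0.834), among 7132 genes. Each of these CO genes had its highest level in CO cluster 13, and apart from Sox9 their correlation without that cluster was not computed. For Sox9 the closest were Ptpn1 (0.940), Foxa2, Scara3, RP23-78P7.2 and Lyz1 in CO, and Tmem173 (0.925), Tgm2, Qsox1, Mfsd1 and Lrrc8d in DES. For Sox17 they were Syn2 (0.928), AC140283.1, Il17rb, Stx18 and Aldh1a1 in CO, and RP23-357J7.6 (0.926), RP23-214L4.1, Wnk2, Irs1 and Lima1 in DES. For Sox4 they were Arhgef2 (0.903), Serpinb6b, Ntf3, Prnp and Ptk7 in CO, and Bcl2l11 (0.862), Ubap2l, Pafah1b1, Plbd2 and Xbp1 in DES.

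In the integrated clustering of both libraries, clusters 7, 9 and 18 are described here because each held at least 10 cells of either library. The CO cells were few, 12, 45 and 24 in that order, against 407, 297 and 43 DES cells. The study places the CO cells it calls epithelial stem cells, CO cluster 12, within integrated clusters 7 and 18. That CO cluster was in the top pair of CO clusters for Sox17 and the highest for Sox4, so the CO cells need not be typical of CO epithelium. Sox9 was lower in the DES cells of all 3, at 139 CPM in CO (104 to 181) and 51.1 CPM in DES in cluster 7, at 160 CPM and 21.4 CPM in cluster 9, and at 204 CPM (167 to 248) and 120 CPM (105 to 137) in cluster 18. Sox17 was higher in DES in cluster 9 (199 CPM and 284 CPM), lower in cluster 18 (285 CPM, 240 to 337, and 215 CPM, 194 to 237) and about level in cluster 7 (217 CPM and 220 CPM). Sox4 was lower in DES in each, at 480 CPM and 278 CPM in cluster 9. Foxa2 was higher in DES in cluster 18, at 8.10 CPM (2.21 to 20.7) and 35.05 CPM (26.9 to 44.8), while its intervals overlapped in clusters 7 and 9. Cluster 19 held 62 CO cells and no DES cell, at 82.8 CPM of Foxa2 and 893 CPM of Sox9.

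In the sections the forkhead members were higher in DES. Foxa2 was at 4.48 CPM in CO A, 3.44 CPM in CO B, 22.5 CPM in DES A and, in DES B, 37.8 CPM, a log2 difference of 2.72 (SE 0.37). This passed the quasi-likelihood test of edgeR across all genes (adjusted p = 0.0308, Benjamini-Hochberg). Foxa1 was at 0 CPM in CO A, 0.363 CPM in CO B, 10.7 CPM in DES A and, in DES B, 31.1 CPM (log2 difference 6.65, SE 1.07, adjusted p = 0.0401 by edgeR). Foxa3 was at 0 CPM, 0.272 CPM, 12.1 CPM and 8.60 CPM in the same order (log2 difference 6.0, SE 0.83, adjusted p = 0.0312 by edgeR). For all 3 genes both DES sections lay above both CO sections. The share of all genes separated in this way was not computed. The CO levels of Foxa1 and Foxa3 rest on 4 and 3 UMIs, all in CO B, and the pooled ratios were 125 (48.6 to 463) and 80.5 (27.2 to 394), intervals of counting error only. The study reports a large tissue fold in CO B and limited identification of clusters in DES B. It based most of its section analyses on CO A and DES A. The 3 were 3 of 6 members tested, in a comparison that called 5.30% of 14098 genes, with 2.67% of all those tested called higher in DES. All 3 calls by edgeR were lost without DES A and without DES B, while the direction held. Those settings leave 1 DES section, and few of all genes were called in them. With 1 section left out the log2 difference ran from 5.62 (without DES B) to 10.7 (without CO B) for Foxa1, from 5.0 (without CO A) to 9.67 (without CO B) for Foxa3 and from 2.24 (without DES B) to 3.05 (without DES A) for Foxa2. Without CO B the CO level of Foxa1 and Foxa3 is 0, so that their fitted values there depend on the prior count.

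Fewer cells of a type and less RNA per cell cannot be told apart in sections. The basal markers Krt14, Krt5 and Trp63, none of them at 0, summed to 3.36 CPM in CO A, 160 CPM in CO B, 9526 CPM in DES A and 5644 CPM in the other DES section. Like the forkhead genes they were higher in both DES sections than in both CO sections, a separation whose share over all genes was not computed. In CO B the 17 spots of cluster 10, led by Krt13, Lgals7 and Krt6a, held 704 Krt5 and 450 Krt14 UMIs. Within DES the section with the higher sum had the higher Foxa3 and the lower Foxa1 and Foxa2, and within CO the higher Foxa1 and Foxa3 and the lower Foxa2. Epithelial markers summed to 3837 CPM and 2515 CPM in CO and to 3999 CPM and 4294 CPM in DES. Myocyte markers summed to 10989 CPM and 11953 CPM in CO and to 2641 CPM and 2963 CPM in DES. Myeloid markers summed to 312 CPM and 634 CPM in CO and to 1979 CPM and 1102 CPM in DES. The part of these cell types in the differences was not tested.

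Sox17 went the other way, at 61.6 CPM in CO A, 88.6 CPM in CO B, 43.2 CPM in DES A and 41.3 CPM in the second DES section. As for the forkhead genes, the share of all genes without overlap between the groups was not computed. The groups did not overlap, yet the log2 difference of -1.03 (SE 0.22) did not pass the test (adjusted p = 0.0680 by edgeR), whereas DESeq2 called it (adjusted p = 0.00541), and so did edgeR without CO A (0.00866) or without CO B (0.0242). Those settings called 12.7%, 19.4% and 16.1% of all genes. Without DES A (0.400) or DES B (0.397), with DESeq2 size factors (0.0638) and with no count filter (0.0635) edgeR did not call it. The 4 endothelial markers, none at 0, summed to 68.0 CPM and 99.3 CPM in CO and 45.5 CPM in each DES section, and their part was not tested. Sox9 was at 19.8 CPM (17.4 to 22.4) and 18.1 CPM in CO and at 20.6 CPM (17.8 to 23.8) and 30.8 CPM in DES. The intervals of CO A and DES A overlapped, and the log2 difference of 0.24 did not pass the test (SE 0.27, adjusted p = 0.654 by edgeR). Sox4 overlapped between the groups (59.7 CPM and 128 CPM in CO, 95.1 CPM and 107 CPM in DES; log2 difference -0.09, SE 0.37, adjusted p = 0.923). Sox2 did not pass the filter on low counts, with 0 and 2 UMIs in CO and 7 and 11 in DES. Whole sections hold all cell types, while the cells set beside them here are non-basal epithelial cells. Between these unlike sets, DES values were above CO values for Foxa2 in sections and in cells. For Sox17 they were below CO in sections and above it in cells, and for Foxa1 above CO in sections and below it in non-basal cells. Sox9 was below CO in cells and above it in both DES sections, where the difference did not pass the test.

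**Figure D3:**
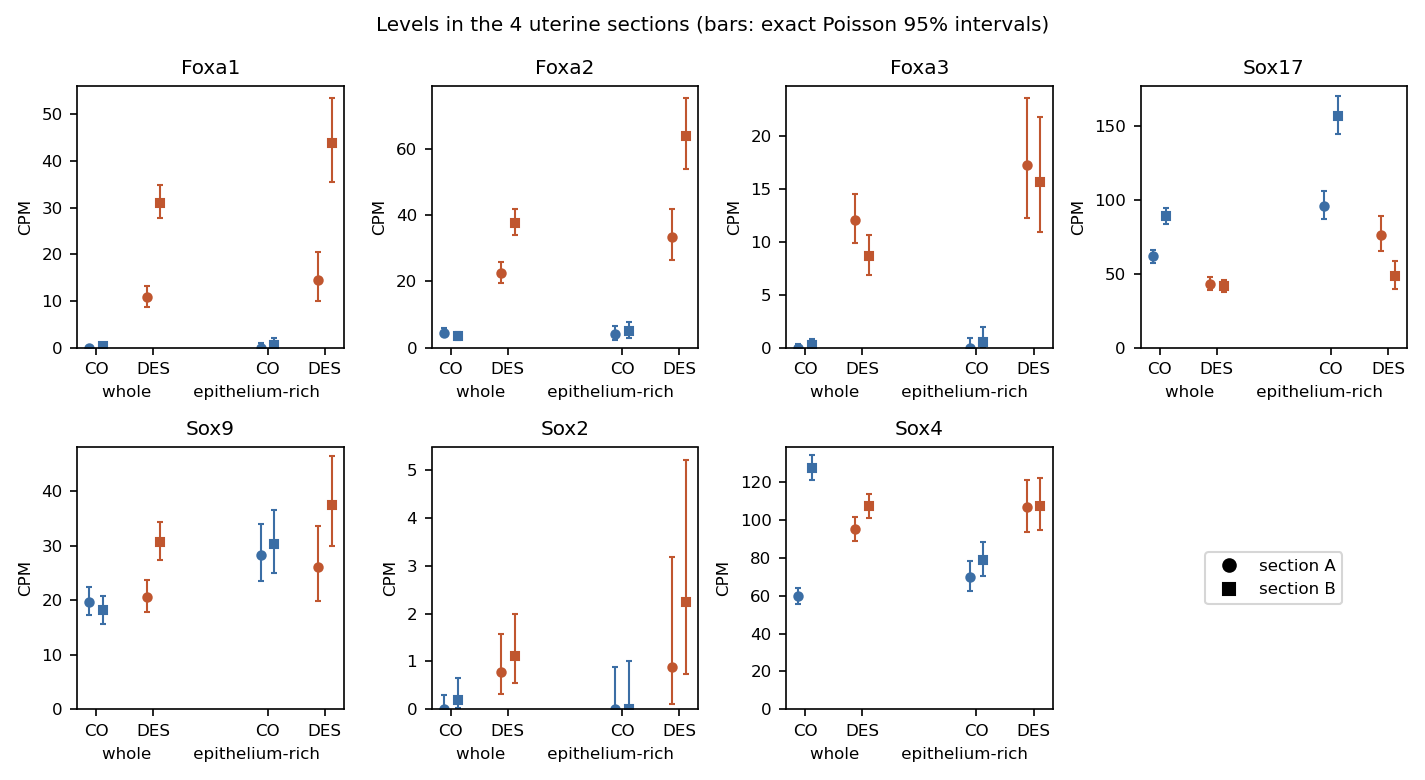
Level in CPM of the 7 genes in each section, over whole sections and over epithelium-rich spots, with circles for section A and squares for section B and exact Poisson 95% bars. Both DES sections lie above both CO sections for Foxa1, Foxa2 and Foxa3 in both regions, and below them for Sox17. The share of all genes separated in this way was not computed.

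Epithelium-rich spots were the 20% of spots in each section with the highest share of UMIs from 8 epithelial genes, none of them a member. They form part of the whole sections, so both comparisons share their samples. Here too the share of all genes without overlap between the groups was not computed. Foxa2 in these spots was 4.05 CPM and 4.92 CPM in CO against 33.5 CPM and 63.9 CPM in DES (log2 difference 3.13, SE 0.42, adjusted p = 0.0196 by edgeR). Foxa1 (6.33, SE 1.02, adjusted p = 0.0289) and Foxa3 (5.49, SE 0.77, adjusted p = 0.0212) were also called by edgeR, each with 2 CO UMIs in all. The 3 were 3 of 6 members tested, where 6.81% of 11695 genes were called, and 4.19% of all those tested were called higher in DES. Without DES B none of the 3 was called by edgeR, nor was Foxa3 without DES A, settings in which few of all genes were called. Foxa1 was not called in the top 10% of spots either (adjusted p = 0.0544 by edgeR). The log2 difference ran over the alternatives from 5.31 to 9.26 for Foxa1, from 4.28 to 8.43 for Foxa3 and from 2.56 to 3.55 for Foxa2, with the highest values of Foxa1 and Foxa3 without CO B. Sox17 was 95.9 CPM and 157 CPM in CO against 76.3 CPM and 48.3 CPM in DES, without overlap, at a log2 difference of -1.33 (SE 0.33, adjusted p = 0.0704 by edgeR, 0.0141 by DESeq2, and by edgeR 0.000339 without CO A and 0.00955 without CO B). It was not called by edgeR without DES A (0.225) or DES B (0.466), in the top 10% or top 30% of spots (0.155 and 0.0525), with DESeq2 size factors (0.0691) or with no count filter (0.0537). Endothelial markers in these spots summed to 22.9 CPM and 28.7 CPM in CO and to 13.2 CPM and 11.2 CPM in DES. The basal markers there summed to 5.01 CPM and 178 CPM in CO and to 8856 CPM and 6293 CPM in DES, and their part in the forkhead differences was not tested. Sox9 (-0.20, SE 0.27) and Sox4 (0.21, SE 0.19) did not pass the test. Sox2 had no UMI in CO and 7 in DES, at least 4.07-fold higher against a floor of 3 UMIs over both CO sections.

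Within CO sections Sox17 and Sox9 were enriched in the epithelium-rich spots, by 1.38 on the log2 scale (SE 0.19, adjusted p = 0.000106 by edgeR) and 1.15 (SE 0.18, adjusted p = 0.000282), in a comparison that called 50.1% of 13662 genes, with 26.1% of all those tested called higher. Foxa2 was not (0.32, SE 0.33, adjusted p = 0.441), and Sox4 was at -0.25, with a call only without CO A (-0.90, adjusted p = 3.91e-05). Within DES sections Foxa2 was 1 of 6 members tested and the sole member past the threshold (0.91, SE 0.20, adjusted p = 0.0161), where 7.24% of the genes tested were called and 1.46% were called higher; it was not called by DESeq2 (adjusted p = 0.122), without DES B (0.331) or in the top 10% of spots (0.0633). Sox17 (0.72, adjusted p = 0.0635) and Sox9 (0.36, adjusted p = 0.314) were not called in DES, though Sox17 passed without CO A, CO B or DES B (adjusted p from 0.000848 to 0.00744 by edgeR), with DESeq2 size factors (0.0455), with no count filter (0.00861) and in the top 10% of spots (0.0240), and not without DES A (0.915), in the top 30% (0.0979) or by DESeq2 (0.121). Foxa1 (0.59, adjusted p = 0.165) and Foxa3 (0.91, adjusted p = 0.106) passed without CO A or CO B (adjusted p from 0.0266 to 0.0333 by edgeR), where 16.3% and 16.6% of all genes were called, and in no other alternative. In the test of whether the enrichment differs between conditions, 0 of the 6 members passed by edgeR, where 13.4% of genes were called. At an unadjusted p under 0.05, which 28.7% of all genes passed, 2 of the 6 did, Sox9 (difference -0.80, SE 0.26, adjusted p = 0.0629) and Sox17 (-0.66, SE 0.28, adjusted p = 0.146), both less enriched in DES. The 8 epithelial genes that ranked the spots were also less enriched in DES, with a median difference of -0.78 and 7 of them called lower by edgeR. Their part in the Sox9 and Sox17 differences was not tested. DESeq2 called 0 of the 6 members as well. Without CO A the test called Sox9 (adjusted p = 0.0109 by edgeR), Sox17 (0.0240) and Sox4 (0.000630, more enriched in DES), and without DES A it called Sox17 (0.0247), in settings that called 24.8% and 7.73% of all genes.

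In the deposited spot clusters of DES sections, Foxa1 and Foxa3 peaked in other clusters than Sox17. In DES A, cluster 1 (332 spots, 21.1% of the section), led by Tff1, Cyp4a12b and Spink5, held 71.4% of 98 Foxa1 UMIs and 75.5% of 110 Foxa3 UMIs, at 20.2 CPM (15.7 to 25.5) and 23.9 CPM (19.0 to 29.6). Cluster 2 of that section (286 spots), led by Alox15, Slc25a48 and Wnt7a, held 64.2% of the Sox17 UMIs at 104 CPM (91.7 to 118), with 3.29 CPM of Foxa1 and 1.65 CPM of Foxa3. Foxa2 was at 30.8 CPM in cluster 1 and 25.9 CPM in cluster 2, with overlapping intervals. Foxa2 thus spanned both regions of DES A. Cluster 8 (61 spots), led by Il1b, S100a9 and S100a8, genes of myeloid cells, was as high in Foxa3 as cluster 1, at 24.0 CPM (14.2 to 37.9), with 14.7 CPM of Foxa1 and 17.3 CPM of Sox17.

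In DES B, where the study found the identification of clusters limited, the peaks were again in different clusters. Cluster 7 (106 spots, 7.81% of the section), led by Akr1c18, Tff1 and Kap, held 45.6% of 307 Foxa1 UMIs at 94.5 CPM (79.5 to 111), 55.3% of 85 Foxa3 UMIs at 31.7 CPM (23.3 to 42.2) and 9 of 11 Sox2 UMIs, with 7.42 CPM of Sox17. Cluster 2 (228 spots), led by Lypd8, Crh and Aqp8, held 60.8% of the Sox17 UMIs at 79.5 CPM (69.9 to 90.0) and 49.1% of 373 Foxa2 UMIs at 58.7 CPM (50.5 to 67.8), with 16.03 CPM of Foxa1. Cluster 1 (261 spots), led by Dapl1, RP23-433F5.1 and Trp63, held the second share of each gene, 21.5% of the Foxa1, 23.5% of the Foxa3 and 21.1% of the Sox17 UMIs, so that the genes lay together there. Krt5, a basal keratin gene, was higher in the Foxa1 and Foxa3 peak clusters than in the Sox17 peak clusters. It was at 7879 CPM and 3755 CPM in clusters 1 and 2 of DES A and at 5193 CPM and 2465 CPM in clusters 7 and 2 of DES B. Other clusters also exceeded the Sox17 clusters, among them cluster 5 of DES A (7153 CPM) and cluster 1 of DES B (5298 CPM). Muc5b, a gel-forming mucin gene, was 541 CPM against 25.1 CPM in DES A and 568 CPM against 27.6 CPM in DES B, and stood at 853 CPM in cluster 8 of DES A.

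**Figure D4:**
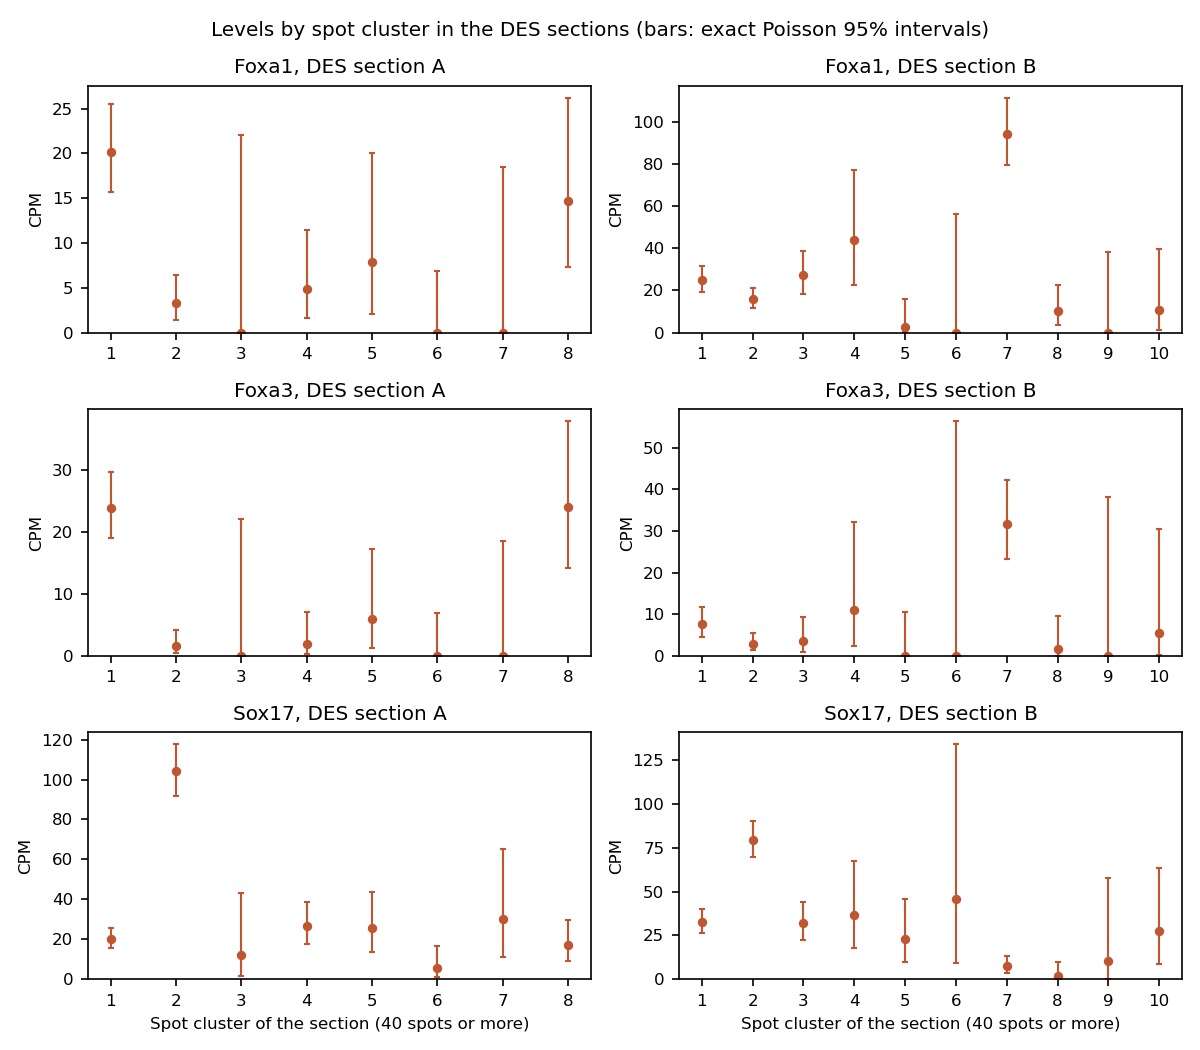
Level in CPM of Foxa1, Foxa3 and Sox17 in each spot cluster with at least 40 spots of the DES sections, with exact Poisson 95% bars. Foxa1 and Foxa3 are high in clusters 1 and 8 of DES A, where Sox17 is at 20.2 CPM and 17.3 CPM, and in cluster 7 of DES B, where it is at 7.42 CPM; all 3 genes are found in cluster 1 of DES B.

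Spots with a Foxa3 UMI had less Sox17 and more Foxa1 than spots without. In DES A, 77 spots with Foxa3 held 9.34 CPM of Sox17 (4.27 to 17.7) and 22.8 CPM of Foxa1 (14.3 to 34.6), against 47.2 CPM and 9.32 CPM in the other 1498. In DES B, 66 spots held 13.2 CPM of Sox17 (7.04 to 22.6) and 84.4 CPM of Foxa1 (67.2 to 105), against 44.4 CPM and 25.2 CPM in the other 1291. Tff1, a trefoil peptide gene of mucous cells, was 868 CPM against 266 CPM in DES A and 3832 CPM against 523 CPM in DES B. Spots with Foxa3 were deeper, with medians of 12010 against 3874 UMIs in DES A and 13747 against 5050 UMIs in DES B. In the DES single cells, by contrast, Foxa3 had 26 UMIs and Muc5b 8 UMIs over 4608 non-basal epithelial cells. Tff1 had 1773 UMIs there, 1696 of them in DES cluster 5, which also held 9 of the Foxa3 UMIs.

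The Foxa2 UMIs of CO sections, 56 in CO A and 38 in CO B, lay mainly in a few spot clusters. CO A cluster 5 (140 spots), led by Scgb3a1, Cxcl5 and Fabp5, held 26 of 56 Foxa2 UMIs at 23.4 CPM and 46.9 CPM of Sox9, and these 3 genes also lead single-cell CO cluster 11, second for Foxa2 and Sox9. Cluster 7 of CO A (116 spots), led by Igha, Jchain and Igkc, had a like level of Foxa2, 22.1 CPM from 8 UMIs. In CO B, clusters 2 and 4 held 21 and 14 of 38 Foxa2 UMIs. The 4 CO UMIs of Foxa1 all lay in CO B cluster 2.

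Genes of glandular secretion, a list of 18 secreted and other products of uterine glands, mostly ran opposite to Foxa2 and Sox17 in the non-basal cells. Of 10 with at least 20 CPM in CO or DES non-basal cells, 9 were at least 2-fold lower in DES. The median DES to CO ratio of the 10 was 0.0475, against 1.01 over all 6184 genes. Spink1, Prss28, Prss29, Sult1d1, Klk1, Gpx3 and Lif reached 20 CPM in CO alone, which by itself makes them lower in DES. The filter thus fixed part of this count and median in advance. Prss29, Prss28 and Spink1 stood at 602 CPM, 185 CPM and 217 CPM in CO and had no UMI in DES, at least 32925-fold, 10119-fold and 11852-fold lower against a floor of 3 UMIs in the DES cells. Gpx3 (117 CPM to 0.957 CPM) had the next lowest ratio. S100g was the gene short of 2-fold (868 CPM to 571 CPM). Over all genes 8.13% were at least 2-fold lower. Most CO UMIs of Prss29 (96.2% of 47446), Prss28 (96.3%) and Spink1 (93.0%) came from the 62 cells of cluster 13. Without that cluster they stood at 22.9 CPM, 6.87 CPM and 15.4 CPM, and DES was at least 1250-fold, 376-fold and 840-fold lower. Prss29 was at 51277 CPM in CO cluster 13, at 10.4 CPM in CO cluster 0 and at 207 CPM in CO cluster 7. The part of free RNA from cluster 13 in the levels of the other CO clusters was not tested. In whole sections 11 of the list were tested, 1 was called higher and 1 lower, where 5.30% of all genes were called. Klk1, a kallikrein gene, fell (4.64 CPM and 2.54 CPM in CO, 0.219 CPM and 0.304 CPM in DES; log2 difference -3.92, adjusted p = 0.0399 by edgeR). Cxcl15, a chemokine gene of adult uterine glands, rose (0.400 CPM and 0.363 CPM in CO, 12.0 CPM and 27.8 CPM in DES; log2 difference 5.47, adjusted p = 0.0241 by edgeR), and its single-cell ratio was 6.18 (4.63 to 8.41), at 3.92 CPM in DES. In epithelium-rich spots Cxcl15 was the 1 of 7 tested that was called, with no CO UMI there, against 6.81% of all genes.

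Genes of gland formation, a list of Wnt pathway genes with some Notch, adhesion, growth factor receptor and oestrogen receptor genes, differed in both directions in the cells. Of 12 with at least 20 CPM in the cells, 3 were at least 2-fold higher in DES and 1 lower (median ratio 1.15), against 5.50% and 8.13% of all genes. These were the Wnt ligand genes Wnt7a (8.997 CPM to 62.6 CPM) and Wnt4 (ratio 2.01), the planar polarity gene Vangl2 (2.04) and, lower, the Wnt receptor gene Ror2 (22.0 CPM to 10.4 CPM). Wnt7a and Vangl2 reached 20 CPM in DES alone and Ror2 in CO alone, so the filter fixed the direction of these. In whole sections, where 2.67% of all genes were called higher, 3 of 19 tested rose and none fell by edgeR, namely Wnt4 (log2 difference 1.93), Wnt7b (1.63) and Lgr4 (1.49), an R-spondin receptor gene. In epithelium-rich spots Wnt4 (1.56) and Lgr4 (0.95) rose and Ror2 fell by 1.02 on the log2 scale (adjusted p = 0.0489 by edgeR), 3 of 16 tested against 6.81% of all genes.

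Of the Indian hedgehog and progesterone list, 3 genes reached 20 CPM in the cells and none differed 2-fold (Nr2f2 1.70, Gata2 1.39, Pgr 1.27). Hand2, a stromal progesterone target, fell by 2.54 on the log2 scale in whole sections, 1 of 10 tested where 5.30% of all genes were called, and had a log2 difference of -3.18 in epithelium-rich spots, where Pgr, the progesterone receptor gene, rose by 1.09 (2 of 9 called, against 6.81% of all genes). The 4 stromal markers, none at 0, summed to 1318 CPM and 991 CPM in CO and to 651 CPM and 412 CPM in DES whole sections, and to 630 CPM and 373 CPM in CO and 327 CPM and 238 CPM in DES epithelium-rich spots, and their part in the Hand2 difference was not tested. Among other Sox genes, Sox7, of the same subgroup as Sox17, was 28.2 CPM in CO and 66.4 CPM in DES cells (ratio 2.35; 2.25 to 2.47) and Sox13 had a ratio of 1.24. In whole sections 1 of 7 was called, Sox21 (log2 difference 4.10, from 2 CO and 36 DES UMIs), and in epithelium-rich spots none of 5. Among other forkhead genes Foxq1 rose in whole sections (5.76 CPM and 7.70 CPM in CO, 68.8 CPM and 69.2 CPM in DES; log2 difference 3.15, adjusted p = 0.0162 by edgeR) and in epithelium-rich spots (2.63), with a single-cell ratio of 2.28. Foxc1 rose in both (2.18 and 1.59), so that 2 of 12 and 2 of 8 forkhead genes were called, against 5.30% and 6.81% of all genes. The single-cell ratio of Foxc1 was 0.916.

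These list calls depended on single sections. Of the 9 list genes called in whole sections, Cxcl15 alone was called without DES A, and none was without DES B, with adjusted p by edgeR of 0.251 and 0.227 for Klk1, 0.0944 and 0.127 for Hand2 and 0.0557 and 0.0669 for Foxq1. Sox21 was also not called without CO A (0.0579) or CO B (0.0593). Of the 8 called in epithelium-rich spots, Cxcl15 and Foxq1 alone were called without DES A and none without DES B, by edgeR, where Ror2 was at an adjusted p of 0.381 and 0.444, Hand2 at 0.203 and 0.205 and Pgr at 0.299 and 0.350. Ror2 was not called by DESeq2 (adjusted p = 0.0659) or in the top 10% or top 30% of spots (0.111 and 0.0639 by edgeR) either, nor was Lgr4 by DESeq2 (0.0569) or in the top 10% (0.0921), nor Pgr in the top 10% (0.0586) or top 30% (0.0607). With no count filter Ror2 (0.0519) and Lgr4 (0.0548) were not called by edgeR. The log2 differences of these genes kept their sign in each alternative in which they were tested; Hand2 did not pass the count filter in the top 10% of spots.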

How the data were processed

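Gene counts as deposited by the authors were used throughout, as UMI counts per gene and cell or spot. Single cells had been aligned to mm10 and counted by the authors with Cell Ranger 3.0.1 and sections with Space Ranger 1.2.2, per the labels. Cell types, epithelial clusters and spot clusters were the authors' own annotation; 12253 CO and 9701 DES cells had a cell type, and 350 annotation rows had no counts. Per the study's methods the authors had removed potential doublets with scran and looked for swapped barcodes with DropletUtils; no further doublet caller was run. UMIs were summed per cell type, cluster, section or region and given per 1000000 UMIs of that sum (CPM), with exact Poisson 95% intervals. Ratios of CPM have exact conditional intervals, and shares of cells have Clopper-Pearson intervals after thinning each cell to 3000 UMIs, which left out 21 CO and 49 DES non-basal cells. All these intervals, and the floor of 3 UMIs used for a count of 0, cover counting error only. Sections were tested with edgeR 4.0.16 (TMM, filterByExpr, quasi-likelihood test, Benjamini-Hochberg adjustment over all genes tested, threshold 0.05) in R 4.3.3, after a test on simulated counts. The region tests used 8 sums with section as a covariate, on spots ranked by the same counts. For DES against CO, p-values measure the spread between 2 mice per condition. In the region tests the level of each section is removed. Their p-values measure how the difference between regions spreads over the sections of both conditions, which share an estimate. Sox2 shares its strand with the overlapping Sox2ot, so its counts could be split, whereas the genes that overlap Sox17 and Sox4 lie on the other strand.

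The members and the gene lists were chosen with earlier results of these data known. Named genes were the 7 members; for each member of at least 10 CPM in a cluster, the 5 genes with the highest correlation over a library's clusters; and from each list the genes past the threshold in sections, up to 4 per direction, and the 4 highest ratios each way in the cells. Alternatives were DESeq2 1.42.0, edgeR with the size factors of DESeq2, no count filter, each section left out, other shares of spots, other cell sets, scalings and thinning depths. The settings without CO cluster 13 and with basal cells alone added, and the use of these alternatives on the list genes called in sections, were chosen after seeing the data. Sequences are from RefSeq (GRCm38.p6) and gene positions from the mm10 annotation.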

Additional observations from a re-analysis of the deposited data

Results flagged for a closer look

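Cells outside the comparisons also held the members. In the 6611 DES cells without a cell type (median 2178 UMIs) Foxa1 stood at 2.13 CPM, Foxa2 at 12.2 CPM, Foxa3 at 0.307 CPM, Sox17 at 107 CPM and Sox4 at 192 CPM, each above the level in the 20134 CO cells without a cell type, where Foxa1 was 0.413 CPM, Foxa2 2.86 CPM, Sox17 42.0 CPM and Sox4 154 CPM. Sox9 and Sox2 in these DES cells did not lie above CO with separate intervals.

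The 168 DES epithelial cells in no cluster, which entered only the alternative with all epithelial cells, lay above the CO epithelial cells for 4 members with intervals that did not overlap. Their Foxa1 was 11.7 CPM (7.89 to 16.7), their Sox17 143 CPM (129 to 159) and their Sox4 395 CPM (371 to 420). Their Sox2 was 13.3 CPM (9.18 to 18.5), from 34 UMIs in 16 cells, with at most 6 UMIs in a cell, which is 34 of the 65 Sox2 UMIs of DES epithelial cells. The basal markers summed to 3341 CPM in these cells, against 5380 CPM in the basal cells, and their part was not tested.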

How the results depend on the processing

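Cell ratios of DES to CO kept their direction under all 7 alternatives for Foxa2, Foxa3, Sox17, Sox9 and Sox4. For Foxa2 the ratio was 2.68 in cells chosen by Epcam, Krt18 and Cdh1, 1.96 in cells without Top2a and Mki67 and 2.47 without CO cluster 13. For Sox17 it was 2.22 as a mean over cells, 2.29 with all epithelial cells and 2.60 in Epcam, Krt18 and Cdh1 cells, for Sox9 0.306, 0.393, 0.342 and 0.342 as a mean over cells, in Epcam, Krt18 and Cdh1 cells, without cycling cells and without CO cluster 13, and for Sox4 1.495 as a mean over cells and 1.53 with all epithelial cells. Foxa1 reversed to 1.60 and Sox2 to 1.38 with all epithelial cells, where basal cells and those in no cluster were added, and to 1.63 in Epcam, Krt18 and Cdh1 cells, for which the cause was not tested.

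Counts of called genes moved with the test and the sections. DESeq2 called 1791 genes in whole sections against 747 by edgeR, 4343 against 6850 for epithelium-rich spots of CO, 561 against 989 for those of DES and 801 against 1832 for the difference. With the top 10% of spots the DES count was 634 and that of the difference 753. Leaving out a section gave 3 to 2819 calls in whole sections, 10 to 3195 in epithelium-rich spots, 5707 to 6935 for CO enrichment, 461 to 2318 for DES enrichment and 891 to 3479 for the difference; the lone section left is assumed to vary like the others. The causes were not tested. With DESeq2 size factors the share of calls that were higher moved from 50.5% to 59.9% for the difference.

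Some member differences changed sign, among them those of Sox4, which had 747 to 1409 UMIs in a section. With each section left out in turn, the log2 differences ranged, in whole sections, from -0.14 to 0.51 for Sox9 and from -0.52 to 0.53 for Sox4 (0.02 without DES A); in epithelium-rich spots from -0.51 to 0.0747 for Sox9; for CO enrichment from -0.13 to 0.90 for Foxa2 and from -0.90 to 0.44 for Sox4; for DES enrichment from -0.0420 to 0.20 for Sox4; and for the difference from -0.39 to 0.95 for Sox4. In the top 10% of spots Foxa1 was at -3.25 for CO enrichment and 3.43 for the difference, and Sox4 at -0.0048 for DES enrichment, and in the top 30% Sox4 was at -0.0225 there. No paired analysis was possible because the section letters A and B mark different mice of each condition and no label pairs them.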
